A study of Mus musculus with 22 samples.

Results

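The livers of tumour-bearing mice that received taurodeoxycholic acid (TDCA) were compared with the livers of sham controls, over all expressed genes. The comparison used 14 of the 22 libraries of the series, chosen by their group labels: 8 libraries of the C26-TDCA group and 6 of the CT group. All mice were male CD2F1 mice of the genotype WT. CT mice had no tumour and were given vehicle after a sham injection. C26-TDCA mice carried C26 cells, a mouse colon carcinoma line widely used to induce cancer cachexia, and had 10 mg/kg TDCA injected into the peritoneum each day. The other 8 libraries were from C26 mice, which carried C26 cells and did not receive TDCA. No group had TDCA without a tumour, so that the tumour and TDCA cannot be told apart in the comparison of C26-TDCA with CT. The test of a difference that goes with TDCA is C26-TDCA against C26. The sources used here do not give the age of the mice, the site of the tumour or the days on TDCA. The design text counts mice, so that libraries were taken as separate mice, and p-values measure the spread between these samples.

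Cachexia is a wasting syndrome in which the tumour and the immune cells that respond to it act on distant organs. In the liver, interleukin-6 acts through its receptor and the transcription factor STAT3, and interleukin-1 through NF-kB and C/EBP factors, and both switch hepatocytes to the synthesis of secreted acute phase proteins. Bile acids are made from cholesterol in the hepatocyte, with Cyp7a1 as the first and rate-limiting enzyme, are conjugated to taurine, pumped into bile and taken up again from portal blood. Gut bacteria turn primary bile acids into secondary ones, and TDCA is the taurine conjugate of one of them, deoxycholic acid.

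Counts per library ran from 16.5 to 25.3 M in CT and from 20.5 to 28.3 M in C26-TDCA, so that totals were higher in C26-TDCA (two-sided exact permutation test, p = 0.0143, adjusted p = 0.0177 over 52 tests) with overlapping ranges. The label liver was borne out by hepatocyte markers: albumin (Alb) had the highest level per length in CT, and the 15 hepatocyte-defining genes tested summed to 67758 to 77271 CPM in CT and 69710 to 84935 CPM in C26-TDCA. CPM are counts per 1000000 after scaling by the trimmed mean of M values (TMM). The sum joins genes that moved apart, such as Fga (log2 fold change 3.27) and Alb (-1.58). As a share of all counts these genes fell from 8.48% in CT to 7.26% in C26-TDCA, without overlap (exact permutation p = 0.000333, adjusted p = 0.000509). On the TMM scale 6 were called higher and 4 lower. With scaling by library totals 3 were higher and 9 lower. Principal component 1, with 60.7% of the variance, placed the CT libraries at -92.7 to -85.0 and the C26-TDCA libraries at 22.7 to 46.6. One library stood apart in 1 marker group: in C26-TDCA 07 the exocrine pancreas markers took 0.0167% of the counts, against at most 0.000893% in the other C26-TDCA libraries. Without C26-TDCA 07, 4255 genes were higher and 4174 lower in C26-TDCA than in CT, against 4250 and 4175 with it.

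Over all genes the livers of the groups differed widely. By edgeR's test of 14785 genes, 4250 (28.7%) had a higher and 4175 (28.2%) a lower level in C26-TDCA than in CT at an adjusted p under 0.05, 57.0% of all genes in either direction. A fold change above 1 log2 unit was seen in 1642 of the higher genes (11.1% of those tested) and 1069 of the lower genes (7.23%). Tested against a log2 fold change of 0.5 (glmTreat), 1992 genes (13.5%) were higher and 1560 (10.6%) lower. In 2283 genes (15.4%) every C26-TDCA library was above every CT library, and in 2393 genes (16.2%) every one was below. The median log2 fold change over all genes was 0.01, with 5% of genes below -1.27 and 5% above 1.68. The split of the calls depended on the scaling: with library totals in place of TMM the median moved to -0.30, and 2423 genes were higher and 7397 lower. Changes below are relative to the TMM scale, and each group of genes whose direction turns on it is named as such. Counts of list members called below are to be read beside the shares over all genes, 28.7% higher and 28.2% lower. For the C26 group, against the same CT libraries, the counts were 4266 higher (28.9%) and 4321 lower (29.2%), 58.1% in all, and between C26-TDCA and C26 they were 256 (1.73%) and 35 (0.237%).

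**Figure D1:**
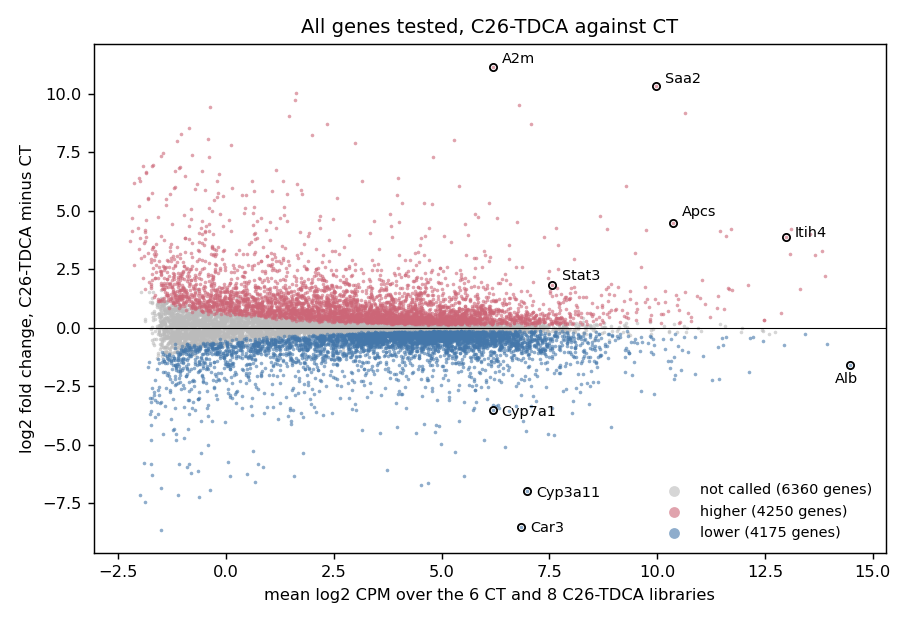
Log2 fold change of C26-TDCA minus CT (y axis) against the mean log2(CPM + 0.1) over the 6 CT and 8 C26-TDCA libraries (x axis) for the 14785 genes tested. Red points are the 4250 genes called higher, blue points the 4175 called lower and grey points those not called; circles mark 9 genes described in the text, from A2m at 11.13 to Car3 at -8.49.

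The most abundant transcripts of the liver were exchanged. Per transcript length, Alb, the mitochondrial gene mt-Co1, and the major urinary protein genes Mup3 and Mup17 were among the 10 highest genes in CT. In C26-TDCA the first places went to Hpx (hemopexin, which binds haem) and Hp (haptoglobin, which binds haemoglobin), followed by Fga, Orm1, Fgg, Saa1 and Saa2, all genes of acute phase proteins. The 20 most abundant genes of each library took 21.6% to 21.9% of the counts in CT (median 21.7%) and 34.8% to 39.2% in C26-TDCA (median 36.7%). The groups did not overlap (exact permutation p = 0.000333, the smallest that 3003 arrangements can give, adjusted p = 0.000509 over 52 tests). The 38 acute phase genes alone went from 3.37% ± 0.156 in CT (SD, n = 6) to 30.4% ± 1.66 in C26-TDCA (n = 8), with the same p. Such shares are relative, and a gene group can lose share because another gains it.

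**Figure D2:**
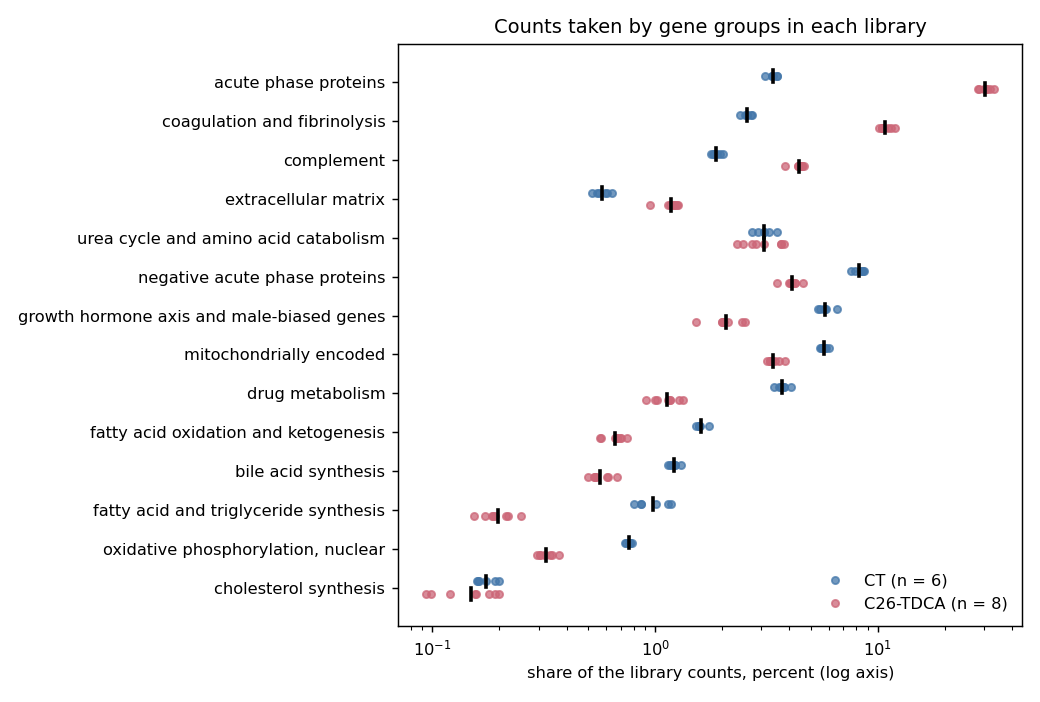
Share of the library counts, in percent on a log axis, taken by 14 gene groups in each of the 6 CT (blue) and 8 C26-TDCA (red) libraries, with a black line at each group mean. The acute phase genes lie at 3.11% to 3.53% in CT and 28.2% to 33.2% in C26-TDCA, while the shares of cholesterol synthesis and of urea cycle and amino acid catabolism overlap.

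The acute phase genes rose almost without exception. Of the 38 members tested, 37 rose, none fell and 1 was not called, with a median log2 fold change of 3.98, beside a median of 0.01 and 28.7% called higher over all genes. In 35 of them all C26-TDCA libraries lay above all CT libraries, a state found in 15.4% of genes overall. Promoter sequences of 4 of these genes are printed first, to show the letters that the transcription factors of this response are known to read. Capitals mark TTCNNNGAA, the core read by STAT factors, in all 4 and, in the fibrinogen genes, also TTGCNNAA or its reverse complement, a core read by C/EBP factors. Each sequence is the 250 bases before the RefSeq start in GRCm38.p6, on the strand of the gene, 5′ to 3′. Fga lies at chr3:83025903-83026152 (plus strand), Fgb at chr3:83049864-83050113 (minus), Itih4 at chr14:30886226-30886475 (plus) and Apcs at chr1:172895055-172895304 (minus).

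Fga: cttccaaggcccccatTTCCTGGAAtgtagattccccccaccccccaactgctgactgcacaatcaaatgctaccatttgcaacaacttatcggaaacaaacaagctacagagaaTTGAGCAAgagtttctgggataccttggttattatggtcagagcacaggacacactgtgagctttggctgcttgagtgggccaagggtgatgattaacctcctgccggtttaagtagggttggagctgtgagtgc
Fgb: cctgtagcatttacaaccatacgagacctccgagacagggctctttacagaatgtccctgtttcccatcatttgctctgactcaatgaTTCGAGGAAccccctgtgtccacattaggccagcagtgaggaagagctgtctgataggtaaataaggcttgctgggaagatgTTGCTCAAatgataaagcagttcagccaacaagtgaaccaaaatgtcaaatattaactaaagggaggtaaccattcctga
Itih4: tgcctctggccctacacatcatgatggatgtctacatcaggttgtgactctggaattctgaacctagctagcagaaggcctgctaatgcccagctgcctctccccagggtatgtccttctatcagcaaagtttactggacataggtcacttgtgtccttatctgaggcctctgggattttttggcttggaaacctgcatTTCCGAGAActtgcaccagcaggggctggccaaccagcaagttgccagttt
Apcs: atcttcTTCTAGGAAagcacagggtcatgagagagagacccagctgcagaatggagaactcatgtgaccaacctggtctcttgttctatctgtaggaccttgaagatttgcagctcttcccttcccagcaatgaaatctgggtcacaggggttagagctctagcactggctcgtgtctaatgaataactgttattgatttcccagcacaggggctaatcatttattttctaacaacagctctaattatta

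Both strands were searched and a window could hold both motifs. Of the 38 acute phase genes, 29 matched a RefSeq promoter by symbol, and TTCNNNGAA was found in 7 of them (24.1%), against 7.02% of all 32851 promoter windows of this length. TTGCNNAA was found in 14 (48.3%), among them Lcn2 and Hpx, against 9.56% of all windows. The 14 also held Saa1, Saa2, Saa3, Saa4, Orm2 and Orm3, which belong to families of related genes, so that the matches are not independent. In each such search a list gene counted if any of its windows matched, whereas shares over all promoters count windows (32851 for 27025 genes). Hamp, the acute phase gene not called, was among the 7 with TTCNNNGAA. A match is a description of the letters, and binding was not measured.

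Fga and Fgb, with both motifs in the windows above, encode with Fgg the 3 chains of the clotting protein fibrinogen. They lie next to each other on chromosome 3 (Fga at chr3:83026076-83033627, Fgb at chr3:83040141-83049863 and Fgg at chr3:83007724-83015049, GENCODE M21, GRCm38). Fga ranged from 3658 to 4291 CPM in CT (median 3882) and from 34649 to 47425 CPM in C26-TDCA (median 36865). All C26-TDCA libraries stood far above all CT libraries, with C26-TDCA 02 the highest. The log2 fold change was 3.27 (SE 0.09, adjusted p = 1.55e-19), and those of Fgb and Fgg were 3.12 (SE 0.10) and 3.16 (SE 0.10). Against C26 alone none of the 3 was called.

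The other promoters printed belong to Apcs, which encodes serum amyloid P, a pentraxin, and to Itih4, a heavy chain of the inter-alpha-trypsin inhibitor family. Apcs ranged from 186 to 266 CPM in CT (median 225) and from 4665 to 5332 CPM in C26-TDCA (median 4948). Itih4 ranged from 1546 to 1900 CPM in CT (median 1783) and from 23121 to 28661 CPM in C26-TDCA (median 25102). Both were tight within each group and far apart between them, with log2 fold changes of 4.46 (SE 0.09, adjusted p = 3.23e-22) and 3.86 (SE 0.08, adjusted p = 5.51e-22). Itih3, a second heavy chain beside Itih4 on chromosome 14, rose by 3.94 (SE 0.10), and Lrg1, a leucine-rich plasma glycoprotein, by 4.18 (SE 0.11).

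The serum amyloid A genes, whose products ride on high-density lipoprotein, went from low to among the highest levels. Saa1 (chr7:46740497-46742980) ranged from 27.4 to 96.4 CPM in CT (median 35.6) and from 23056 to 31194 CPM in C26-TDCA (median 24024), a log2 fold change of 9.16 (SE 0.29, adjusted p = 2.57e-18). Saa2 (chr7:46751790-46754313) ranged from 7.4 to 73.2 CPM in CT (median 9.05) and from 22923 to 31404 CPM in C26-TDCA (median 25025). Its log2 fold change was 10.31 (SE 0.57, adjusted p = 1.69e-13). Saa1 and Saa2 are close copies, and how the authors' counting shared reads between them is not given. Orm2, an orosomucoid that carries lipophilic drugs in plasma, was at 4.36 ± 2.08 CPM in CT (SD, n = 6) and 1823 ± 186 CPM in C26-TDCA (n = 8). Its neighbour Orm1 was at 549 ± 46.2 and 9678 ± 1063 CPM.

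CT 05 was the highest CT library for several of these genes. Lcn2, which encodes the iron-siderophore-binding lipocalin 2, was at 8.4 CPM in CT 05 and at 0.997 to 2.24 CPM in the other CT libraries, against 1768 to 2564 CPM in C26-TDCA (median 2097). A2m, the gene of alpha-2-macroglobulin, a trap for proteases, was at 10.8 CPM in CT 05 and at most 0.333 CPM in the others, against 424 to 8420 CPM in C26-TDCA (median 5283). Neither gene overlapped between the groups with CT 05 included. The log2 fold change was 9.53 (SE 0.41) for Lcn2, 11.13 (SE 1.32) for A2m and 10.31 for Saa2, and without CT 05 it was 10.30 for Lcn2 and 11.38 for Saa2. For A2m no fold is given without CT 05, since the other CT libraries held a few counts at most. Hamp, the gene of the iron hormone hepcidin, was the 1 acute phase gene not called, at 164 to 417 CPM in CT and 177 to 479 CPM in C26-TDCA (adjusted p = 0.733).

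Genes of the receptors and signal carriers of interleukin-6 and interleukin-1 were mostly higher. Of 31 tested, 23 rose, 4 fell and 4 were not called, with a median log2 fold change of 1.34. Stat3, the factor named above, ranged from 82.9 to 103 CPM in CT (median 94.6) and from 293 to 358 CPM in C26-TDCA (median 327), without overlap (log2 fold change 1.81, SE 0.07, adjusted p = 1.23e-16). Socs3, the feedback inhibitor that STAT3 induces, ranged from 4.86 to 13.8 CPM in CT (median 8) and from 199 to 298 CPM in C26-TDCA (median 233), a log2 fold change of 4.84 (SE 0.19). Receptor genes rose too: Il1r1 for interleukin-1 by 2.49 (SE 0.14), Osmr for oncostatin M by 3.87 (SE 0.18) and Tnfrsf1a for tumour necrosis factor by 1.88 (SE 0.09). Il6ra, the ligand-binding chain for interleukin-6 itself, was at 102 ± 20.5 CPM in CT and 102 ± 6.8 CPM in C26-TDCA (adjusted p = 0.976), but was called lower by total-count scaling (-0.31, adjusted p = 0.00957) and after removal of the length and GC trend (-0.26, adjusted p = 0.0458). Rela, a subunit of NF-kB, was at 40.6 ± 4.7 and 42 ± 2.58 CPM (adjusted p = 0.627), but was called lower by total-count scaling (-0.26, adjusted p = 0.0055).

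**Figure D3:**
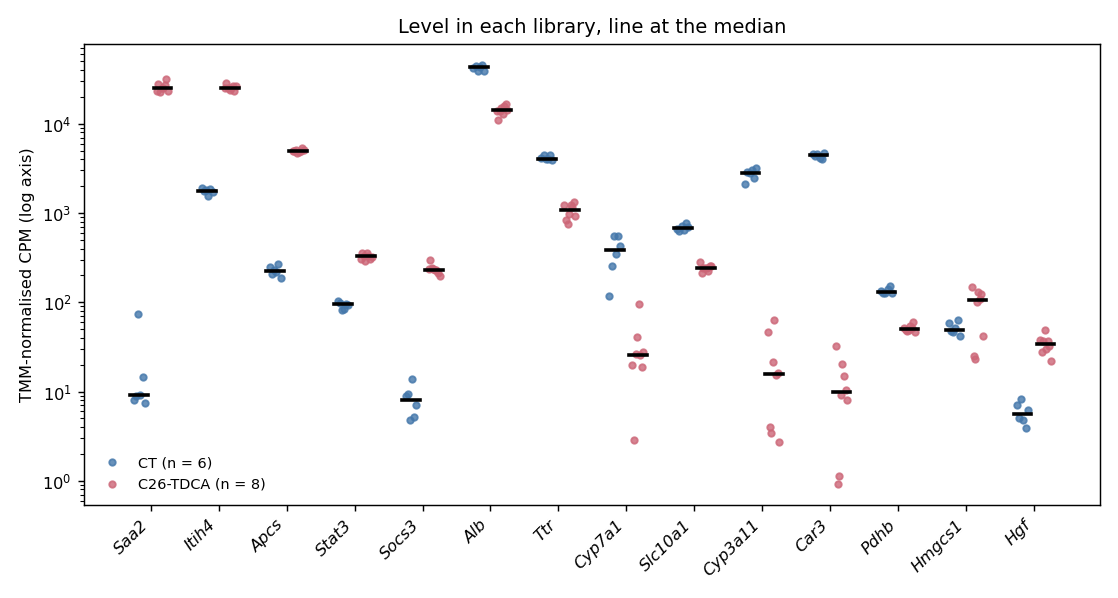
TMM-normalised CPM on a log axis of 14 genes in each CT (blue, n = 6) and C26-TDCA (red, n = 8) library, with a black line at the median of each group. Groups are apart for 13 genes, for example Itih4 at 1546 to 1900 against 23121 to 28661 CPM, and overlap for Hmgcs1, where the 8 C26-TDCA libraries range from 23.4 to 148 CPM.

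The complement and clotting systems, both secreted largely by hepatocytes, had more genes that rose than fell, by a margin that depended on the scaling. Of 26 complement genes, 16 rose and 4 fell, while 6 were not called (median 0.71), and with total-count scaling 13 rose and 10 fell (median 0.40). C3, the central component, was at 6327 ± 585 CPM in CT and 29235 ± 2335 CPM in C26-TDCA (log2 fold change 2.21, SE 0.07, adjusted p = 5.26e-18). Serping1, the inhibitor of C1, rose by 1.57 (SE 0.07). C9, a pore-forming component, was at 1029 ± 86.5 CPM in CT and 862 ± 109 CPM in C26-TDCA and was not called (adjusted p = 0.0538). Of 28 coagulation and fibrinolysis genes, 19 rose, 6 fell and 3 were not called (median 0.59), and with total-count scaling 16 rose and 8 fell (median 0.28). Beside the fibrinogens, Cpb2, a carboxypeptidase that slows fibrinolysis, rose by 2.61 (SE 0.09) and Pros1, the anticoagulant protein S, by 2.03 (SE 0.10). Serpinc1, which encodes antithrombin, was at 1547 ± 55.4 CPM in CT and 1616 ± 135 CPM in C26-TDCA (adjusted p = 0.479), but was called lower by total-count scaling (-0.25, adjusted p = 0.000791). F5 was not called (adjusted p = 0.114).

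Genes of plasma proteins known to decline in the acute phase split into both directions. Of 15 tested, 6 rose, 5 fell and 4 were not called, with a median of 0.06 that turned to -0.25 with total-count scaling and -0.03 once the length and GC trend was removed. The called share was 73.3%, beside 57.0% of all genes. Alb ranged from 38896 to 45535 CPM in CT (median 42639) and from 10908 to 16431 CPM in C26-TDCA (median 14106), a fall with no overlap (log2 fold change -1.58, SE 0.11, adjusted p = 1.18e-11). Ttr, the thyroxine and retinol carrier transthyretin, ranged from 3880 to 4474 CPM in CT (median 4052) and from 751 to 1312 CPM in C26-TDCA (median 1070; log2 fold change -1.98, SE 0.16). In the other direction, Serpina7, the thyroxine-binding globulin, went from 14.5 ± 4.69 to 123 ± 41.8 CPM, Fetub from 295 ± 21.5 to 776 ± 101 CPM and Trf, which encodes transferrin, from 295 ± 30.1 to 655 ± 50.1 CPM. Apoa1, the main protein of high-density lipoprotein, was at 5992 ± 581 and 5383 ± 708 CPM (adjusted p = 0.257).

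Chemokine genes mainly rose and interferon-stimulated genes mainly fell. Of 21 chemokine and cytokine genes tested, 15 rose, 3 fell and 3 were not called (median 1.09). Cxcl1, which attracts neutrophils, ranged from 8.06 to 17.7 CPM in CT (median 12.4) and from 244 to 408 CPM in C26-TDCA (median 321), a log2 fold change of 4.68 (SE 0.17). Cxcl14 went from 1.25 ± 0.674 to 109 ± 20.1 CPM and Il33, an alarmin, from 1.8 ± 0.408 to 43 ± 15.5 CPM. Chemokines that interferon-gamma induces differed from these: Cxcl9 fell by 3.27 log2 units (SE 0.27), and Cxcl10 was at 1.89 ± 0.368 and 1.09 ± 0.632 CPM (adjusted p = 0.103). Among 33 genes that interferons induce, 6 rose and 20 fell, while 7 were not called (median -0.55, with 28.2% of all genes lower). Irf7, a factor of the interferon response, went from 29.4 ± 3.42 to 14.1 ± 2.73 CPM and Bst2, the antiviral tetherin, from 86.5 ± 10.6 to 37.2 ± 5.29 CPM. Ifi47, an interferon-induced GTPase, rose by 0.95 (SE 0.10).

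Iron and haem genes went in both directions. Of 24, 8 rose, 13 fell and 3 were not called (median -0.32). Slc39a14, a zinc and iron importer, went from 355 ± 37.7 to 1057 ± 112 CPM and Hmox1, haem oxygenase 1, from 11.2 ± 1.47 to 40.4 ± 5.86 CPM. Tfr2, the transferrin sensor, rose by 0.57 (SE 0.06), while Tfrc, the transferrin uptake receptor, was at 20.7 ± 5.59 and 19.1 ± 4.34 CPM (adjusted p = 0.597). Those that fell included the haem synthesis genes Alas1, Alad, Urod and Fech and the exporter gene Slc40a1.

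Genes of energy metabolism were mostly lower. Of the 35 nuclear genes of oxidative phosphorylation, the machinery that makes ATP in mitochondria, none rose, 34 fell and 1 was not called, with a median of -0.80. In all 34 every C26-TDCA library lay below every CT library, a state found in 16.2% of genes overall. Over all genes 28.2% were called lower. Atp5b, a catalytic subunit of ATP synthase, ranged from 1101 to 1190 CPM in CT (median 1154) and from 508 to 683 CPM in C26-TDCA (median 580; log2 fold change -0.98, SE 0.07, adjusted p = 1.86e-11). Sdhb, of complex II, fell by 1.34 (SE 0.09) and Uqcrc2, of complex III, by 0.91 (SE 0.06), whereas Ndufa2, of complex I, was at 34.9 ± 3.03 and 31.3 ± 5.3 CPM (adjusted p = 0.201). The 13 genes of the mitochondrial genome gave 8 that fell and 5 not called (median -0.41), a called share of 61.5%, near the 57.0% of all genes. With the length and GC trend removed, 3 of them rose, 2 fell and the median was -0.03. On the TMM scale mt-Co1 was down by 0.69 (SE 0.08) and mt-Cytb not called (-0.17, adjusted p = 0.0538). Together the 13 took 5.72% ± 0.22 of the counts in CT and 3.39% ± 0.22 in C26-TDCA. Of 23 genes of the citric acid cycle and its entry, 20 fell, 2 rose and 1 was not called (median -0.84). Pdhb, of pyruvate dehydrogenase, was at -1.39 (SE 0.09). The largest fall was that of Pdk1 at -2.22 (SE 0.14), which encodes a kinase that inhibits pyruvate dehydrogenase. Of its relatives in the list, Pdk2 fell and Pdk4 rose. In bulk liver, fewer cells of a type and less RNA per cell cannot be told apart.

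**Figure D4:**
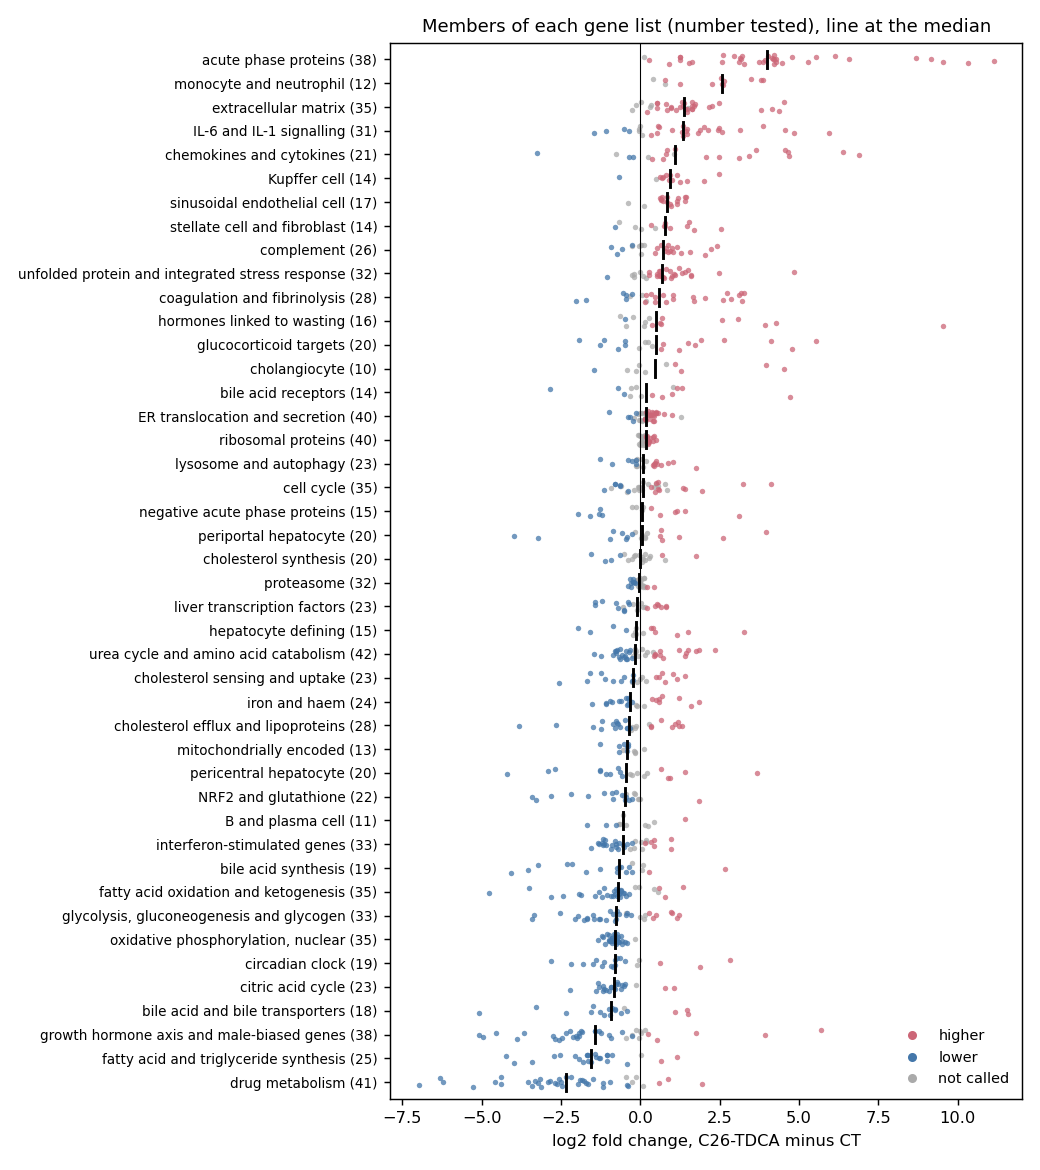
Log2 fold change of C26-TDCA minus CT for the members of each gene list with at least 10 genes tested (number tested in parentheses), red for genes called higher, blue for lower and grey for not called, with a black line at the list median. Medians run from -2.34 for drug metabolism to 3.98 for acute phase proteins, and the lists share some genes. List medians that changed sign with another scaling are named in the text.

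Fat burning and fat making both fell. Of 35 genes of fatty acid oxidation and ketogenesis, 27 fell, 3 rose and 5 were not called (median -0.72). Ehhadh, a peroxisomal enzyme, ranged from 159 to 194 CPM in CT (median 164) and from 43.2 to 51.9 CPM in C26-TDCA (median 45.5; log2 fold change -1.86, SE 0.08, adjusted p = 6.8e-16). Acaa1b, a peroxisomal thiolase, fell by 4.78 (SE 0.22). Fabp1, the liver fatty acid binding protein, fell by 2.81 (SE 0.23), and Acsl1, which activates fatty acids and was named for its small p outside the lists, fell by 2.31 (SE 0.11). Fabp1 was 10th per transcript length in CT and 72nd in C26-TDCA. Cpt1a, which passes fatty acids into mitochondria, was at 635 ± 76.2 and 562 ± 56 CPM (adjusted p = 0.163). Of 25 genes of fatty acid and triglyceride synthesis, 22 fell, 2 rose and 1 was not called (median -1.57). Pklr, liver pyruvate kinase, fell by 3.43 (SE 0.27), Me1, malic enzyme, by 2.52 (SE 0.21) and Dgat2, which completes triglycerides, by 1.41 (SE 0.11).

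Glucose and glycogen genes followed the same direction in most cases. Of 33, 22 fell, 7 rose and 4 were not called (median -0.77). Ugp2, which makes the sugar donor for glycogen, ranged from 429 to 516 CPM in CT (median 456) and from 70.9 to 98.8 CPM in C26-TDCA (median 80.2; log2 fold change -2.53, SE 0.09, adjusted p = 1.55e-17). Pygl, liver glycogen phosphorylase, fell by 1.67 (SE 0.12), and Ldha, lactate dehydrogenase A, rose by 1.15 (SE 0.08). Of the gluconeogenic enzymes, G6pc fell by 0.96 (SE 0.34, adjusted p = 0.0182) with overlapping groups, and Pck1 was at 2682 ± 724 CPM in CT and 2973 ± 385 CPM in C26-TDCA (adjusted p = 0.359). Of 42 urea cycle and amino acid genes, 13 rose, 19 fell and 10 were not called (median -0.17), so that 76.2% were called beside 57.0% of all genes. Otc, a urea cycle enzyme, fell by 1.24 (SE 0.09), while Slc25a15, the ornithine carrier of the same cycle, rose by 1.45 (SE 0.11) and Mat1a, which makes S-adenosylmethionine, by 1.84 (SE 0.19). Ass1, another urea cycle enzyme, was at 1798 ± 329 and 1602 ± 497 CPM (adjusted p = 0.479).

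The enzymes that make bile acids were mostly lower in C26-TDCA than in CT. Of 19 measured, 14 fell, 2 rose and 3 were not called, with a median of -0.68. Cyp7a1 (chr4:6265612-6275633) ranged from 119 to 548 CPM in CT (median 386) and from 2.9 to 96.2 CPM in C26-TDCA (median 25.8). The groups did not overlap although both were wide, and C26-TDCA 05 was the highest of its group (log2 fold change -3.53, SE 0.61, adjusted p = 2.5e-05). Cyp8b1, which adds the hydroxyl group that makes cholic acid, ranged from 290 to 382 CPM in CT (median 321) and from 36.5 to 136 CPM in C26-TDCA (median 61.8; -2.17, SE 0.28). Cyp27a1, which opens the alternative pathway, fell by 1.26 (SE 0.18), Akr1d1, a reductase of the sterol ring, by 1.71 (SE 0.20), and Baat, which joins bile acids to taurine, by 0.68 (SE 0.09). Cyp7b1, the next enzyme of the alternative pathway, was at 388 ± 115 and 323 ± 153 CPM (adjusted p = 0.431), and Cyp2c70, which makes the muricholic acids of mice, at 616 ± 70.3 and 638 ± 77.1 CPM (adjusted p = 0.764).

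Bile transporters fell on both faces of the hepatocyte. Of 18 genes tested, 14 fell, 3 rose and 1 was not called (median -0.94). Slc10a1, which takes up conjugated bile acids such as TDCA from blood, ranged from 636 to 764 CPM in CT (median 681) and from 214 to 280 CPM in C26-TDCA (median 242; log2 fold change -1.49, SE 0.10, adjusted p = 3.78e-12). Abcb11, the pump that moves bile salts into bile, fell by 0.91 (SE 0.15), Abcb4, which exports phospholipid, by 0.98 (SE 0.09), and Abcc2, which exports conjugates, by 1.26 (SE 0.12). Abcc3, an outlet back to blood, fell by 1.56 (SE 0.13). The genes that rose were Slc10a2, Atp8b1 and Abcc4.

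Receptor genes for bile acids changed in both directions. Of 14 tested in the list of receptors and their partners, 6 rose, 3 fell and 5 were not called, a called share of 64.3%, near the 57.0% of all genes. With total-count scaling 5 rose and 7 fell, and the median of 0.18 became -0.12. Gpbar1 and Vdr, which encode a membrane and a nuclear receptor for secondary bile acids, were not analysed here. Nr1h4, the nuclear receptor FXR, ranged from 125 to 158 CPM in CT (median 141) and from 64.9 to 102 CPM in C26-TDCA (median 87.4), lower with no overlap (log2 fold change -0.71, SE 0.14, adjusted p = 0.000117). Its target Nr0b2, the repressor SHP, ranged from 7.19 to 42.1 CPM in CT and from 13.7 to 20.2 CPM in C26-TDCA (adjusted p = 0.333), so that the C26-TDCA libraries lay inside the CT range. S1pr2, a sphingosine phosphate receptor that conjugated bile acids activate, ranged from 4.62 to 7.72 CPM in CT and from 12 to 17.4 CPM in C26-TDCA (1.30, SE 0.11, adjusted p = 5.64e-10). Chrm3, a muscarinic receptor, went from 0.346 ± 0.199 to 9.34 ± 3.4 CPM. The xenobiotic receptor Nr1i3 (CAR) fell by 2.84 (SE 0.25), whereas Nr1i2 (PXR) was at 62.5 ± 11.1 and 56.9 ± 5.43 CPM (adjusted p = 0.233) and Rxra, the shared partner of these receptors, at 438 ± 29.8 and 443 ± 29.5 CPM (adjusted p = 0.824). Rxra was called lower with total-count scaling (-0.29, adjusted p = 0.000387) and after removal of the length and GC trend (-0.16, adjusted p = 0.0256).

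Between C26-TDCA and C26 no gene of the synthesis, transporter or receptor lists was called, and 1.97% of all genes were. The intervals of those differences were wide for some genes: Cyp7a1 differed by 0.37 (approximate 95% interval -0.71 to 1.44, adjusted p = 0.801), and Slc10a1 by -0.08 (-0.26 to 0.10, adjusted p = 0.732). Against CT the C26 group had log2 fold changes of -3.90 for Cyp7a1, -2.04 for Cyp8b1, -1.42 for Slc10a1 and 1.44 for S1pr2, from the same CT libraries.

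**Figure D5:**
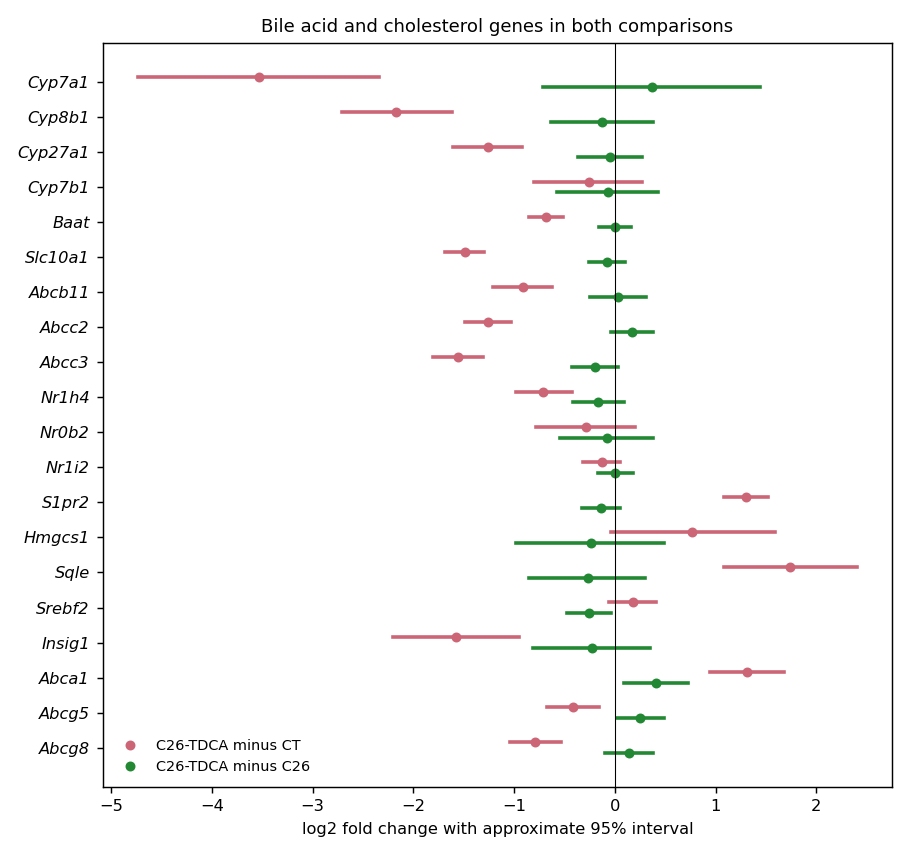
Log2 fold changes with approximate 95% intervals, unadjusted for the number of genes, of 20 bile acid and cholesterol genes in C26-TDCA minus CT (red) and C26-TDCA minus C26 (green), all from the same edgeR model. Cyp7a1 stands at -3.53 and Sqle at 1.74 against CT, and no green value is called at an adjusted p under 0.05.

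Cholesterol synthesis did not move in 1 direction, and the C26-TDCA libraries were spread widely. Of 20 genes, 2 rose and 4 fell, while 14 were not called, with a median of -0.01 that became 0.04 with upper-quartile scaling. The called share was 30%, below the 57.0% of all genes. Sqle, which makes squalene epoxide, ranged from 16 to 31.8 CPM in CT (median 22.8) and from 27.7 to 110 CPM in C26-TDCA (median 88.6), higher with an overlap of the ranges (1.74, SE 0.34, adjusted p = 0.000106). Hmgcs1, which makes the HMG-CoA of the pathway, was not called (adjusted p = 0.115). In C26-TDCA it was at 148, 24.9, 23.4, 101, 129, 109, 124 and 42 CPM in libraries 01 to 08, so that libraries 02 and 03 lay below the lowest CT value of 41.5 CPM, library 08 lay inside the CT range and the other 5 lay above the highest CT value of 63.4 CPM. Sqle was lowest in these 3 C26-TDCA libraries too, at 41.4 CPM in 02, 27.7 CPM in 03 and 40.9 CPM in 08. Sc5d and Tm7sf2, enzymes of its later steps, fell by 0.92 (SE 0.15) and 1.55 (SE 0.25). The summed share of the list was 0.159% to 0.199% in CT and 0.0939% to 0.199% in C26-TDCA (exact permutation p = 0.189, adjusted p = 0.214).

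Genes of cholesterol sensing and carriage changed in both directions. Of 23 genes of sensing and uptake, 7 rose, 11 fell and 5 were not called (median -0.24), so that 78.3% were called beside 57.0% of all genes. Insig1, which holds SREBP factors in the endoplasmic reticulum, fell by 1.58 (SE 0.32), Srebf1, the factor of lipid synthesis, by 1.68 (SE 0.19), and Npc1, which frees cholesterol from lysosomes, by 1.12 (SE 0.08). Lrp1, a scavenger of lipoprotein remnants, rose by 1.40 (SE 0.10). Srebf2, the factor of cholesterol synthesis, was at 37.3 ± 2.95 and 42.2 ± 7.61 CPM (adjusted p = 0.211).

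Of 28 genes of efflux and lipoproteins, 8 rose, 15 fell and 5 were not called (median -0.37). Abca1, which loads cholesterol on apolipoprotein A-I, ranged from 152 to 221 CPM in CT (median 200) and from 312 to 682 CPM in C26-TDCA (median 475; 1.31, SE 0.19, adjusted p = 1.45e-06). Abcg8 fell by 0.79 (SE 0.13) and its partner Abcg5 by 0.42 (SE 0.13), which together export sterols to bile. Lcat, which esterifies cholesterol in plasma, rose by 0.99 (SE 0.08). Lipg, endothelial lipase, fell by 3.81 (SE 0.37), and Apoa2, a protein of high-density lipoprotein, by 1.21 (SE 0.12).

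Genes that clear drugs and other foreign compounds fell strongly. Of 41, 34 fell and 3 rose, while 4 were not called (median -2.34), and the list went from 3.72% ± 0.219 to 1.13% ± 0.143 of the counts. Cyp3a11 (chr5:145854426-145879964), a major drug-oxidising cytochrome P450, ranged from 2114 to 3152 CPM in CT (median 2826) and from 2.74 to 63.2 CPM in C26-TDCA (median 15.7; -6.98, SE 1.09, adjusted p = 6.7e-06). The highest C26-TDCA library was still far below the lowest CT library. Gsta2, a glutathione transferase, fell by 6.23 (SE 0.36) and Ces1d, a carboxylesterase, by 6.32 (SE 0.56). Outside the list, Inmt, a methyltransferase, fell by 6.63 (SE 0.42). Car3, the carbonic anhydrase of male liver, ranged from 4048 to 4680 CPM in CT (median 4467) and from 0.927 to 32.3 CPM in C26-TDCA (median 9.84; -8.49, SE 1.11). Cyp3a13, another P450, rose by 1.93 (SE 0.08). Cyp2e1 was at 6919 ± 899 and 5719 ± 705 CPM and was not called (adjusted p = 0.0536), but it was called lower by DESeq2 (-0.27, adjusted p = 0.0439), by voomWithQualityWeights (-0.30, adjusted p = 0.0169), in a fit of these groups alone (adjusted p = 0.0192) and by total-count scaling (-0.58, adjusted p = 5.07e-05). Of 22 genes of the antioxidant factor NRF2 and glutathione, 14 fell, 1 rose and 7 were not called (median -0.50), with Nfe2l2, the gene of NRF2, down by 0.91 (SE 0.07), Gstm1 down by 3.42 (SE 0.32) and Prdx1 at 697 ± 37.4 and 603 ± 72.6 CPM (adjusted p = 0.0616).

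Genes of the growth hormone axis and genes with male-biased expression in liver mostly fell. Of 38, 26 fell, 5 rose and 7 were not called (median -1.43). The list also holds the hormone's receptor, its signal carriers and carriers of insulin-like growth factors, and the 5 that rose were Moxd1, Igfbp1, Igfbp4, the kinase gene Jak2 and Cux2, a factor with female-biased expression. Mup3, a major urinary protein, ranged from 8906 to 10078 CPM in CT (median 9646) and from 1460 to 3474 CPM in C26-TDCA (median 2557; -1.87, SE 0.22, adjusted p = 8.95e-08), and Mup21 fell by 4.55 (SE 0.43). Mup genes are near-identical copies, so that their counts are uncertain one by one. Cyp2d9, a male-biased P450, fell by 2.01 (SE 0.15) and Igfbp3, the main carrier of insulin-like growth factor 1, by 2.11 (SE 0.19). Igf1 itself was at 571 ± 62 CPM in CT and 626 ± 66.5 CPM in C26-TDCA (adjusted p = 0.223).

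Other hormone-linked groups held genes that rose and genes that fell. Of 19 circadian clock genes, 14 fell, 3 rose and 2 were not called (median -0.81): Hlf, a clock output factor, fell by 1.41 (SE 0.12), Usp2 by 2.81 (SE 0.24), and the repressor Nfil3 rose by 1.87 (SE 0.18). Per1 was at 46.7 ± 9.13 and 44.8 ± 10.8 CPM (adjusted p = 0.76), and the hour of collection is not given. Of 20 genes of glucocorticoid action, mostly targets of the hormone, 10 rose, 6 fell and 4 were not called (median 0.50). The 6 that fell were the targets Lpin1, Dusp1, Tsc22d3 and Angptl4, the receptor gene Nr3c1, and Hsd11b1. The list holds Nr3c1 and Hsd11b1 as part of the hormone's machinery and not as targets. The metallothioneins Mt1 and Mt2, which also belong to the acute phase list, rose by 4.76 (SE 0.16) and 5.52 (SE 0.20), Hsd11b1, which regenerates the hormone, fell by 1.26 (SE 0.12), and Klf9 was not called (0.23, adjusted p = 0.119). Of 16 genes of hormones linked to wasting, 9 rose, 1 fell and 6 were not called (median 0.50), a called share of 62.5%, near the 57.0% of all genes. Inhbb, a subunit of activin B, went from 0.85 ± 0.512 to 17.2 ± 3.86 CPM and Fst, the activin antagonist follistatin, from 0.557 ± 0.362 to 4.82 ± 1.66 CPM. Igfbp1 went from 8.59 ± 4.98 to 131 ± 97.2 CPM.

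The folding machinery of the secretory pathway rose. Of 32 genes that cells turn on when proteins misfold or translation is stressed, 25 rose, 1 fell and 6 were not called (median 0.67). The promoter of Calr, a folding helper, is printed because it holds the element that the stress factors ATF6 and XBP1 are known to read, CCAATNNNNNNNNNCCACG, here on the opposite strand and in capitals. It lies at chr8:84846932-84847181 on the minus strand of GRCm38.p6 and is given 5′ to 3′ on the strand of the gene.

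Calr: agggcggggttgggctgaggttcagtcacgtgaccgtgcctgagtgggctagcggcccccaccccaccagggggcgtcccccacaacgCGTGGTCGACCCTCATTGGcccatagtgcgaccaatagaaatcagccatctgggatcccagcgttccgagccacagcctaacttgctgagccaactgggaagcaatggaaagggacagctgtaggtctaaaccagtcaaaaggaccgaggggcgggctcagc

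The element was found in 9 of the 29 list genes that matched a RefSeq promoter (31%) and in 0.113% of all windows. The list was made of genes known to answer this stress, so that the share describes the list and is not a result of these livers. The 9 were Calr, Canx, Creld2, Derl3, Dnajc3, Hsp90b1, Hspa5, Pdia6 and Syvn1. Of these 9, Canx was the 1 that was not called (0.07, adjusted p = 0.341), and it was called lower by total-count scaling (-0.24, adjusted p = 0.00437). Calr ranged from 442 to 650 CPM in CT (median 533) and from 1077 to 1324 CPM in C26-TDCA (median 1156; 1.09, SE 0.09, adjusted p = 1.84e-10). Pdia4, a disulfide isomerase, rose by 1.49 (SE 0.12) and Xbp1 by 0.97 (SE 0.08), while Creb3l3, a liver factor of this family, was at 344 ± 16.7 and 301 ± 38.8 CPM (adjusted p = 0.0509).

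Some shifts in protein production depended on the scaling. Of 40 genes of translocation and export from the endoplasmic reticulum, 22 rose, 5 fell and 13 were not called (median 0.18), but with total-count scaling 6 rose, 16 fell and the median was -0.13. Ostc, of the glycosylation complex, rose by 0.73 (SE 0.08), and Sar1b, which starts large transport vesicles, fell from 130 ± 8.27 to 65 ± 9.46 CPM. Of 40 ribosomal protein genes, 17 rose, none fell and 23 were not called (median 0.16), and with total-count scaling 1 rose, 16 fell and the median was -0.15. Rplp0 was at 98.6 ± 5.83 and 130 ± 12.1 CPM on the TMM scale (0.40, SE 0.07), and at 0.09 with total-count scaling it was not called (adjusted p = 0.206). The proteasome gave 2 that rose, 9 that fell and 21 not called of 32 (median -0.06), and with total-count scaling 0 rose, 29 fell and the median was -0.37. Lysosome and autophagy genes gave 10 that rose, 6 that fell and 7 not called of 23, and their median of 0.09 became -0.22 with total-count scaling. In the order given, the called shares of these lists were 67.5%, 42.5%, 34.4% and 69.6%, beside 57.0% of all genes. Ctsl, a lysosomal protease, rose by 1.76 (SE 0.12).

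Markers of other liver cells were mostly higher. Of 14 Kupffer cell markers, 12 rose, 1 fell and 1 was not called (median 0.93), and their summed level was 530 to 576 CPM in CT and 748 to 965 CPM in C26-TDCA. Cd163, a haemoglobin scavenger receptor, ranged from 19.2 to 25.8 CPM in CT (median 22) and from 71.7 to 120 CPM in C26-TDCA (median 86.2; 1.99, SE 0.15, adjusted p = 7.03e-11). Vsig4 and Cd5l rose by 1.24 (SE 0.10) and 1.46 (SE 0.10). Monocyte and neutrophil markers gave 10 that rose and 2 not called of 12 (median 2.56), from summed levels of 36.4 to 50.1 CPM in CT to 51 to 110 CPM in C26-TDCA. Most of these were low: Itgam was at 0.17 ± 0.094 and 1.84 ± 0.567 CPM, and Ccr2 at 1.28 ± 0.583 and 8.13 ± 3 CPM. The most abundant of them, Lyz2, was at 34.7 ± 2.94 and 46.1 ± 11.2 CPM (adjusted p = 0.0627), and the neutrophil granule genes Mpo, Ngp, Camp and Ltf were not analysed here.

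Of 17 sinusoidal endothelial markers, 15 rose, none fell and 2 were not called (median 0.85; summed 353 to 438 CPM in CT and 644 to 820 CPM in C26-TDCA). Clec4g rose by 1.44 (SE 0.12) and Gpr182 by 1.40 (SE 0.13), and Oit3 was at 23.2 ± 3.08 and 24.9 ± 4.95 CPM (adjusted p = 0.65). Of 14 stellate cell and fibroblast markers, 9 rose, 1 fell and 4 were not called (median 0.76; summed 246 to 331 and 496 to 650 CPM). Extracellular matrix genes gave 29 that rose, none that fell and 6 not called of 35, with a median of 1.36. Several of them are also made by hepatocytes, such as Vtn, which encodes vitronectin and went from 1594 ± 114 to 4090 ± 265 CPM, and Fn1, fibronectin, from 1821 ± 176 to 5561 ± 873 CPM. Lum and Dcn, proteoglycans of fibroblasts, rose by 2.48 (SE 0.12) and 1.47 (SE 0.10). How far these marker lists bear on the matrix and chemokine counts was not tested.

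Cholangiocyte markers gave 4 that rose, 1 that fell and 5 not called of 10, so that 50% were called beside 57.0% of all genes. Spp1, osteopontin, went from 18.8 ± 3.56 to 429 ± 162 CPM and Sox9, a factor of ductal cells, from 1.59 ± 0.6 to 24.7 ± 12 CPM, while Epcam, a surface marker of these cells, was at 1.19 ± 0.883 and 0.881 ± 0.302 CPM (adjusted p = 0.295). Lymphocyte markers were low in both groups: of 4 T and NK cell genes tested 3 fell, with Cd4 at 2.47 ± 0.522 and 0.817 ± 0.34 CPM, and of 11 B and plasma cell genes 3 fell and 1 rose. For the B and plasma cell genes the called share was 36.4%, below the 57.0% of all genes. Of 8 erythroid genes, 6 rose and 2 fell. Hbb-bs, a haemoglobin chain, went from 37.5 ± 12.4 to 123 ± 30.2 CPM, and Alas2, the erythroid haem enzyme, from 204 ± 12.3 to 43.3 ± 15.9 CPM. Of the markers of intestinal and colon epithelium, the tissue of origin of C26 cells, Cdx1, Cdx2, Vil1, Cdh17 and Muc2 were not analysed here, and the 7 tested summed to 264 to 326 CPM in CT and 333 to 457 CPM in C26-TDCA. That gap depended on the TMM scale. As a share of all counts the markers took 0.0348% in CT and 0.036% in C26-TDCA, with overlap (exact permutation p = 0.597, adjusted p = 0.621). Of these 7, Car1, Lgals4 and Fabp2 fell, Epcam and Tff3 were not called, and Krt8 and Krt18, which hepatocytes also express, rose (median -0.89). Krt8 was not called with total-count scaling (0.23, adjusted p = 0.0818). Cela1, the 1 pancreas marker tested, fell by 1.61 (SE 0.40), and by 2.50 without C26-TDCA 07, where it was at 53 CPM.

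Cell cycle, transcription factor and zonation genes were mixed. Of 35 cell cycle genes, 11 rose and 6 fell, while 18 were not called, so that 48.6% were called beside 57.0% of all genes. With total-count scaling 5 rose and 12 fell, and the median of 0.09 became -0.22. Cdkn1a, the arrest gene p21, went from 0.695 ± 0.307 to 12.3 ± 9.38 CPM, Btg2, an anti-proliferative gene, rose by 3.23 (SE 0.28) and Ccnd1, cyclin D1, fell by 1.15 (SE 0.24). Of 23 liver transcription factors, 7 rose, 9 fell and 7 were not called (median -0.12; 4 rose and 14 fell with total-count scaling), with Nr5a2, a regulator of Cyp8b1, up by 0.81 (SE 0.07) and Foxa1 down by 1.44 (SE 0.18). Of 20 pericentral hepatocyte genes, 5 rose, 10 fell and 5 were not called (median -0.46). Aldh3a2 fell by 4.19 (SE 0.26), Slc13a3 rose by 3.67 (SE 0.16), and Glul, glutamine synthetase of the innermost pericentral cells, was at 574 ± 83.8 and 662 ± 64.2 CPM (adjusted p = 0.246). Of 20 periportal genes, 6 rose and 8 fell, while 6 were not called, and the median of 0.04 became -0.28 with total-count scaling and -0.03 once the length and GC trend was removed. Cyp2f2 fell by 3.24 (SE 0.37) and Ctsc rose by 2.60 (SE 0.12). The called shares were 69.6% for the liver transcription factors, 75% for the pericentral and 70% for the periportal genes, beside 57.0% of all genes.

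A small set of genes appeared or vanished at this depth. In 26 genes no CT library had more than 3 counts while the C26-TDCA mean was at least 1 CPM, and in 7 genes the reverse held. Acpp, a phosphatase, had 4 counts in all CT libraries together and stood at 20.3 to 55.6 CPM in C26-TDCA. Morc1, a germ cell gene, had 0 counts in CT and 695 in C26-TDCA, at 1.57 to 5.26 CPM. Cyp2c55 had 775 counts in CT, at 5.61 ± 1.2 CPM, and 6 in C26-TDCA. Trat1 and Reg3b are not among the 26, since a CT library of each held more than 3 counts. Trat1, a lymphocyte adaptor, was at most at 0.134 CPM in CT, highest in CT 06, and at 9.96 to 45 CPM in C26-TDCA (adjusted p = 3.18e-09). Reg3b, a secreted lectin, was at 0 in all CT libraries but CT 05, at 0.226 CPM, and at 11.8 to 73.8 CPM in C26-TDCA (adjusted p = 6.5e-07). Because the values of the lower group are at or near the counting limit, no fold is given for the genes of this paragraph.

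Most values of C26-TDCA livers did not differ by call from those of C26 livers, and the genes that did were mainly of small change. Of the 291 genes called between C26-TDCA and C26 (1.97%), 25 differed by more than 1 log2 unit, and edgeR's glmTreat called 0 against a log2 fold change of 0.5. At an unadjusted p under 0.05 there were 2335 genes (15.8%), and DESeq2 called 440 higher and 111 lower. Leaving out 1 library at a time, the genes called higher ranged from 54 without C26-TDCA 04 to 527 without C26 01. Libraries also varied in how counts depended on base composition, taken as the slope of log2 CPM per 10 percentage points of transcript GC. The slope ran from -0.15 to 0.00 in CT (median -0.10) and from 0.02 to 0.28 in C26 (median 0.07). In C26-TDCA it ran from -0.12 to 0.08 (median -0.03), overlapping both other groups. A difference in slope between the groups was not tested. With the trend on length and GC removed, 9 genes were higher and 8 lower in C26-TDCA than in C26, and 11 of the 291 genes (3.78%) kept their call.

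Hgf (chr5:16553495-16620152), the hepatocyte growth factor made by stellate cells, was called in both comparisons. It ranged from 3.88 to 8.17 CPM in CT (median 5.67) and from 22.1 to 49.1 CPM in C26-TDCA (median 34.3), with log2 fold changes of 2.54 (SE 0.20, adjusted p = 1.31e-10) against CT and 0.73 (adjusted p = 0.0255) against C26. The second of these was 0.60 with the trend removed (adjusted p = 0.0931) and 0.74 in a fit of these groups alone (adjusted p = 0.0561). Colec10, a lectin of stellate cells, was higher than in C26 by 0.53 (adjusted p = 0.0143) and by 0.37 with the trend removed (adjusted p = 0.0957). Prex2 and Jmjd1c, an exchange factor for Rac and a histone demethylase relative, were higher than in C26 by 0.77 (adjusted p = 0.0186) and 0.71 (adjusted p = 0.018), and by 0.41 and 0.43 with the trend removed (adjusted p = 0.224 and 0.0957). Jmjd1c was not called in a fit of these groups alone either (adjusted p = 0.0566). Phc3, of the polycomb complex, differed from C26 by 0.69 (adjusted p = 0.0143) and by 0.39 with the trend removed (adjusted p = 0.0334), and was not called in a fit of these groups alone (0.69, adjusted p = 0.0553). Myh14, a non-muscle myosin, differed by -0.44 (adjusted p = 0.0117) and by -0.37 with the trend removed (adjusted p = 0.0352). Phc3 was at 26.5 ± 1.37 CPM in CT and 35.5 ± 6.83 CPM in C26-TDCA, with overlapping ranges.

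Some strongly changed genes differed widely among the C26-TDCA mice. The coefficient of variation over the 8 libraries was 74.5% for Igfbp1 and 69.7% for A2m. A2m was at 1501, 7405, 8420, 7678, 1016, 5055, 424 and 5511 CPM in libraries 01 to 08, so that 01, 05 and 07 were low. Upp2, uridine phosphorylase 2, varied by 63.4%, Scd1, stearoyl-CoA desaturase, by 61.4% and Cyp17a1, a steroid hydroxylase, by 60.2%. Cyp17a1 was at 43.4 to 392 CPM, against 4.19 to 16.3 CPM in CT (4.44, SE 0.58, adjusted p = 4.92e-07). Itih4, by comparison, varied by 6.91% in C26-TDCA and 6.97% in CT.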

How the data were processed

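Liver polyA RNA of 22 mice was sequenced. The authors deposited a table of raw gene counts. The submitters' processing notes name, without roles, featureCounts 2.0.3, HISAT2 2.2.1, DESeq2 1.42.0, Trimmomatic 0.40, FastQC and bcl2fastq 2.17, and the build GRCm38. The sources used here do not give the annotation release, strand setting or treatment of multi-mapped reads. The table held 15448 genes, whose highest library count was 10 or more, and 15438 matched GENCODE M21, which gave coordinates and lengths.

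Genes were filtered with filterByExpr (minimum count 10; 663 removed), scaled by TMM and tested with edgeR 4.0.16 (R 4.3.3, quasi-likelihood test, 3 group means over 22 libraries, Benjamini-Hochberg adjusted p under 0.05). Standard errors and intervals are approximate. For shares of counts, group means were compared over all arrangements of the libraries (exact permutation test, two-sided). Data were also simulated for C26-TDCA against CT. Of the changes put in, 34 of 66 of 0.5 log2, 62 of 67 of 1 and 67 of 67 of 2 were called. No change was put into 13750 of the 13950 genes, and these gave 9 false calls. In the real libraries 57.0% of genes were called. The number of false calls when so large a share of genes differs was not tested.

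The genes and 49 lists were chosen with earlier results of these data known. Named genes were the called genes with the largest changes (at least 10 CPM), the smallest p, those differing from C26, the widest spread (at least 50 CPM), the top levels per length, up to 5 called and 2 uncalled members per list, and a fixed set. Genes cited only as list members carry no values, and some genes that the rules name are not reported here. Alternatives were DESeq2 size factors and test, upper-quartile and total-count scaling, no filter, limma 3.58.1 voomWithQualityWeights, 2 groups alone, a replicate block, a loess correction for length and GC, glmTreat and each library left out.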

Additional observations from a re-analysis of the deposited data

Results flagged for a closer look

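Values in which 1 library lay apart from the rest of its group, by Dixon's test of the gap against the range, came up in 37 of the 489 groups of values examined, and chance gives about 1 in 20. C26-TDCA 07 accounted for 12 of them, CT 05 for 5 and C26-TDCA 02 for 4.

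In C26-TDCA 07 the exocrine pancreas markers took 0.0167% of the counts against 0.000473 to 0.000893% in the other C26-TDCA libraries, and Cela1, an elastase, was at 53 CPM against 4.95 to 8.88 CPM. The same library had the lowest shares of complement genes (3.82% against 4.36 to 4.65%), of matrix genes (0.943% against 1.14 to 1.27%) and of cholesterol sensing genes (0.272%), and the highest share of proteasome genes (0.206%). Its Lrp1 and Fn1 were low, at 1476 and 3676 CPM. Its Fetub, Ugp2, Uqcrc2 and Ndufa2 were high, at 1009, 98.8, 107 and 42.6 CPM.

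CT 05 had the highest CT levels of Saa1 (96.4 CPM), Saa2 (73.2 CPM), Lcn2 (8.4 CPM), A2m (10.8 CPM) and Reg3b (0.226 CPM). C26-TDCA 02 was apart in Fga (47425 CPM) and Socs3 (298 CPM), which were high, and in Akr1d1 (33.1 CPM) and Glul (515 CPM), which were low. Cyp7a1 was at 96.2 CPM in C26-TDCA 05 and Pklr at 49.2 CPM in C26-TDCA 01.

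Among the other CT libraries, CT 01 was high in Sc5d (304 CPM) and Btg2 (14.4 CPM). CT 02 was low in Il33 (1 CPM) and high in Epcam (2.91 CPM). CT 06 was low in Rxra (378 CPM) and in the share of liver transcription factors (0.279%), and high in the shares of fatty acid oxidation (1.75%) and cell cycle genes (0.029%). CT 07 was high in Cyp8b1 (382 CPM) and Lyz2 (40.3 CPM) and low in Npc1 (176 CPM). CT 08 was high in Ehhadh (194 CPM), Abcc2 (728 CPM) and Abcg8 (208 CPM).

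For 12 named genes the change against CT differed between C26-TDCA and C26, by edgeR's test of C26-TDCA minus C26. Higher were Hgf at 0.73 (adjusted p = 0.0255), Colec10 at 0.53 (adjusted p = 0.0143), Prex2 at 0.77 (adjusted p = 0.0186), Jmjd1c at 0.71 (adjusted p = 0.018) and Phc3 at 0.69 (adjusted p = 0.0143). Ctcflos, at 0.69 (adjusted p = 0.0255), and the zinc finger gene Zfp970, at 0.70 (adjusted p = 0.0255), were at 0.70 (adjusted p = 0.0708) and 0.60 (adjusted p = 0.105) with the length and GC trend removed. Lower was Myh14 at -0.44 (adjusted p = 0.0117). Also lower were 4 others whose calls were lost with the trend removed. Cdk2ap2, at -0.39 (adjusted p = 0.0174), and Cad, which starts pyrimidine synthesis, at -0.36 (adjusted p = 0.0415), became -0.30 (adjusted p = 0.0957) and -0.34 (adjusted p = 0.079). Pfkl, liver phosphofructokinase, at -0.32 (adjusted p = 0.0256), and Adprhl2, at -0.29 (adjusted p = 0.0499), became -0.23 (adjusted p = 0.193) and -0.20 (adjusted p = 0.25). In a fit of C26-TDCA and C26 alone the calls of Hgf, Jmjd1c, Phc3, Ctcflos, Zfp970, Cad, Pfkl and Adprhl2 were lost (adjusted p = 0.0509 to 0.103).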

How the results depend on the processing

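Of 193 genes examined, 162 kept their direction and their side of the threshold against CT in every alternative run. For C26-TDCA against CT, total-count scaling, chosen after seeing the data, gave 2423 higher and 7397 lower, with 6598 of the 8425 calls kept and 34 opposite, and glmTreat gave 1992 higher and 1560 lower. For C26 against CT these were 2292 higher and 7872 lower, and 1980 higher and 1633 lower. Against C26, DESeq2 gave 440 higher and 111 lower, voomWithQualityWeights 409 higher and 59 lower, a fit of those groups alone 41 higher and 4 lower, the removed length and GC trend 9 higher and 8 lower, glmTreat 0 higher and 0 lower, and total-count scaling 324 higher and 16 lower. Leaving out 1 library, the counts against C26 ran from 54 to 527 higher and from 5 to 67 lower. The cause of these changes was not tested.

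The difference in the lysosome share was 0.0266 percentage points over protein coding genes, and 0.0237 to 0.0354 with 1 library left out, and its call against CT was lost over protein coding genes and without 1 of 11 libraries. The pancreas share differed by -0.00386 to -0.00154, and was called without C26-TDCA 07. Direction turned under total-count scaling for Rela (-0.26), Serpinc1 (-0.25), Canx (-0.24) and Rxra (-0.29), and for Rxra also with the trend removed (-0.16). Of the genes given as not called, C9, Creb3l3, Cyp2e1, Ndufa2 and Prdx1 were called without C26-TDCA 07, and Cxcl10, F5, Lyz2, Nr1i2 and mt-Cytb without some other library. Total-count scaling also called Apoa1, Ass1, C9, Cpt1a, Creb3l3, Cxcl10, Cyp2e1, Il6ra, mt-Cytb, Ndufa2, Nr0b2, Nr1i2, Per1, Prdx1 and Tfrc lower, and lost the calls of Cad, Jmjd1c, Krt8, Phc3 and Rplp0. The DESeq2 test, voomWithQualityWeights or the fit of 2 groups alone called C9, Creb3l3, Cxcl10, Cyp2e1, mt-Cytb, Ndufa2 and Prdx1 lower and F5, Klf9 and Lyz2 higher. With the trend removed Cpt1a, Creb3l3, Il6ra and Nr1i2 were called lower and Lyz2 higher, and the call of Cad was lost. Upper-quartile scaling called F5 and Lyz2 and lost Adprhl2 and Cdk2ap2.

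Whether replicate numbers pair libraries across groups was not settled. Between CT and C26-TDCA, correlations of same-numbered deviations were -0.006 to 0.126, and 3 of 6 C26-TDCA libraries correlated best with their own number. Between C26 and C26-TDCA they were -0.204 to 0.337, and C26-TDCA 03 (0.337) and 04 (0.212) correlated best with their own number. The main model held no pairing. With the replicate number as a block, 4036 higher and 3981 lower were called, with 7848 of 8425 calls kept, Cxcl10, Igf1 and Lyz2 were called, and Adprhl2 and Cdk2ap2 were not. Depth limits genes of a few counts, for which levels are given in place of folds.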
